A study of Arabidopsis thaliana with 6 samples.

Results

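The comparison of rdr6-11 with wild-type Col-0 asked what the aerial transcriptome of Arabidopsis thaliana looks like when the RNA-dependent RNA polymerase RDR6 is lost by itself. Its members were the nuclear genes of the deposited read-count table, 32696 genes once ribosomal and transfer RNA genes were set aside, of 33602 genes in the table. Of these, 13300 were measured, which means at least 100 reads in the library with more reads. All 6 genotypes of the study were grown at 22 °C in long days (16 h of light, 8 h of dark), and the aerial parts of 18-day-old plants went into 1 library each. Col-0 is the wild type, rdr6-11 carries a mutant RDR6 allele, ein5-1 carries a mutant allele of EIN5, a cytoplasmic exonuclease, and ski2-3 a mutant allele of SKI2, a helicase that works with the cytoplasmic exosome. The double mutant is ein5-1 ski2-3 and the triple mutant is rdr6-11 ein5-1 ski2-3, so the triple mutant against the double mutant is a second pair that differs in the rdr6-11 allele and shares no library with the first. Col-0, ein5-1, ski2-3 and the double mutant are called the libraries with RDR6, and rdr6-11 and the triple mutant those without. The labels give neither the hour of harvest nor the number of plants behind a library.

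RDR6 copies cleaved RNA into double-stranded RNA, which Dicer enzymes cut into small interfering RNAs. Its best known substrates in Arabidopsis are the TAS transcripts. A microRNA cleaves each of them, RDR6 copies the fragment, and the resulting trans-acting siRNAs (tasiRNAs) direct the cleavage of other mRNAs, such as those of the auxin response factors ARF3 and ARF4. The circadian clock is a separate system, in which the MYB-like factors CCA1 and LHY are made around dawn and repress genes that peak in the evening, among them TOC1 and the evening complex genes ELF3, ELF4 and LUX.

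The miRNA sites of the TAS precursors are shown first, because 4 of these transcripts (TAS1A, TAS1C, TAS2 and TAS3) were higher in rdr6-11; TAS1B, which had few reads, is shown for comparison. All were read from the RefSeq TAIR10.1 genome and are written 5′ to 3′. In the miRNAs the seed, bases 2 to 8, is in capitals, and in the sites the capitals mark the bases opposite that seed.
miR173: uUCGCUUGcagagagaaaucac
TAS1A: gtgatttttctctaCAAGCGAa
TAS1B: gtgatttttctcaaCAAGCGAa
TAS1C: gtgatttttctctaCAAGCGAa
TAS2: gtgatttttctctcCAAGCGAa
miR390: aAGCUCAGgagggauagcgcc
TAS3 upstream site: ggtgttatcctatCTGAGCTt
TAS3 downstream site: ttgtctatccctcCTGAGCTa
The 22 bases of miR173, on the plus strand at chr3:8236161-8236182, form 20 Watson-Crick pairs with the sites of TAS1A, TAS1C and TAS2 and 19 with that of TAS1B. The miR173 sites lie on the minus strand at chr2:11722081-11722102 in TAS1A, chr1:18549660-18549681 in TAS1B, chr2:16537890-16537911 in TAS1C and chr2:16539991-16540012 in TAS2. TAS3, on the plus strand, has 2 sites for the 21 bases of miR390, at chr3:5862099-5862119 and chr3:5862343-5862363. Each site of TAS3 forms 16 Watson-Crick pairs with the miRNA, and the upstream site has 4 G:U pairs besides.

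Between its miR390 sites TAS3 holds the stretch that matches the auxin response factor genes. The 21-base stretch of the transcript that best complements both ARF3 and ARF4 lies at chr3:5862205-5862225, and in the target sites the capitals mark bases that form a Watson-Crick pair with it.
TAS3 stretch: tttcttgaccttgtaagaccc
ARF3: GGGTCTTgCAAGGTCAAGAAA
ARF4: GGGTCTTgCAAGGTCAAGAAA
ARF2: GGGTCTTgCAAGGTCAAGAAt
ARF3 and ARF4 share this site letter for letter, with 20 Watson-Crick pairs, at chr2:14325941-14325961 and chr5:24309507-24309527 on the minus strand. ARF2, at chr5:24913262-24913282 on the plus strand, has 19. All the miRNA sites and target sites lie in exons of the annotated transcripts.

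The libraries held 20205663 reads in Col-0 and 28074011 in rdr6-11, of which 10942840 and 13118699 fell on nuclear genes. Chloroplast genes took 44.4% of the reads in Col-0 and 52.4% in rdr6-11, and ribosomal RNA took 19.2% and 1.58% of the nuclear reads. Read counts below are as deposited. For comparison between libraries they were divided by 1.383 for rdr6-11, 1.281 for ein5-1, 1.146 for ski2-3, 2.105 for the double mutant and 1.687 for the triple mutant, with Col-0 at 1. Of the genes with 1 to 20 reads, even counts made up 82.1% in rdr6-11 and 81.8% in the triple mutant, but between 38.5% and 41.7% in the libraries with RDR6. Intervals given in brackets are 95% counting intervals of a log2 ratio. They cover counting error only, and for rdr6-11 they are too narrow if each fragment was counted through both of its reads. With the counts of rdr6-11 halved, they were 1.2 times as wide in the median. There were no replicates, so no difference has a replicate check. In bulk tissue, fewer cells of a type and less RNA per cell cannot be told apart. Tissue markers fitted the label: the 21 antenna genes were all measured, while 0 of 8 root markers and 0 of 6 floral organ markers were, with at most 31 and 25 reads in any library.

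RDR6 (AT3G49500) itself was lower in rdr6-11, though its transcript was still detected. It had 433 reads in Col-0, 401 in ein5-1, 453 in ski2-3, 779 in the double mutant, 176 in rdr6-11 and 252 in the triple mutant. Both libraries labelled rdr6-11 lay below all 4 others after scaling. The log2 ratio was -1.76 in rdr6-11 against Col-0 (-2.03 to -1.51) and -1.31 in the triple against the double mutant.

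A ratio of at least 2-fold was called a difference, by size alone and with no test. In rdr6-11, 627 genes were at least 2-fold higher than in Col-0 (4.71% of those measured) and 753 were lower (5.66%). Of the measured genes, 1718 reached 100 reads in rdr6-11 but not in Col-0 and 393 in Col-0 but not in rdr6-11. Such a gene enters the count through the library where it is higher, so counts over the measured members of a gene group are descriptions. Most differences were small. Between 2-fold and 4-fold lay 500 of the higher and 571 of the lower genes, and 25 and 50 were different by 16-fold or more. With the rdr6-11 counts halved, the whole interval lay beyond 2-fold for 363 of the higher and 433 of the lower genes. The median log2 ratio of measured genes was -0.03. It was 0.17 when libraries were scaled by total nuclear counts, which moves every log2 ratio up by about the same amount, and the split was then 945 higher and 525 lower. That total includes ribosomal RNA. With ribosomal RNA left out of the total, the median was -0.11, and 546 genes were higher and 895 lower. The share of higher genes among those called was thus 45.4%. It was 64.3% with total nuclear counts and 37.9% with ribosomal RNA left out of that total.

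The second pair had more differences: 1917 of 15642 measured genes were at least 2-fold higher in the triple than in the double mutant (12.3%) and 1698 were lower (10.9%). Among the 13235 genes measured in both pairs, 464 were higher in both (3.51%) and 447 lower in both (3.38%). These were 75.2% of the first pair's higher genes and 60.8% of its lower genes, and 26.3% and 45.2% of the second pair's. Only 21 genes were called in opposite directions. Across genes, which are not independent replicates, the log2 ratios of the pairs had a Pearson's r of 0.68 and a Spearman's rho of 0.63. Both rdr6-11 libraries lay above all 4 libraries with RDR6 for 20.5% of the measured genes and below them for 22.4%. Of the genes called in the first pair, 546 of the 627 higher and 606 of the 753 lower ones stood apart in this way. The rdr6-11 allele, the state of the clock genes described below and the even counts occur in the same libraries, so their parts in these differences cannot be told apart.

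**Figure D1:**
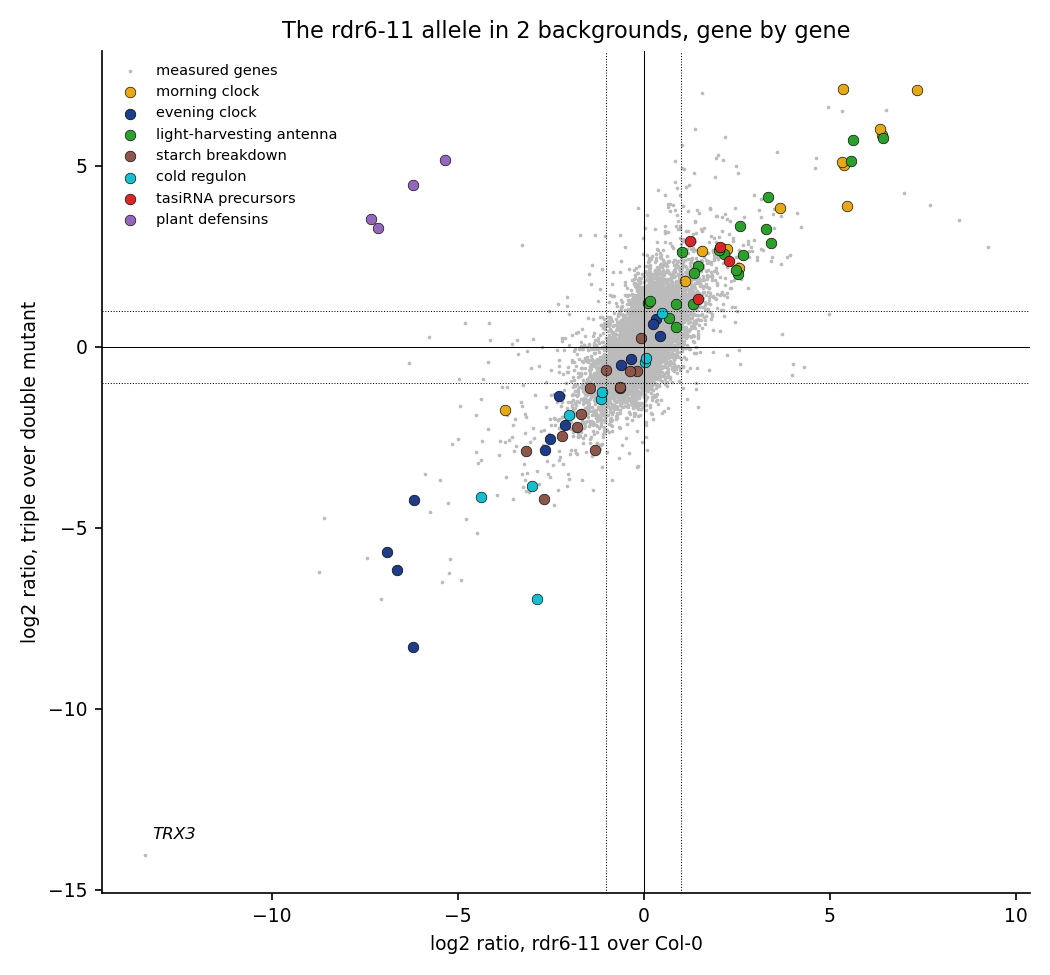
Each point is a gene measured in both pairs, with the log2 ratio of rdr6-11 over Col-0 on the horizontal axis and that of the triple over the double mutant on the vertical axis; dotted lines mark 2-fold. Clock, antenna, starch breakdown, cold and tasiRNA precursor genes called in the first pair have the same sign in both pairs. Some differ in size between the pairs, such as COR15A (-2.86 and -6.96) and RVE2 (-3.73 and -1.75). The 4 defensin genes lie in the upper left.

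Of 7 tasiRNA precursors, TAS1A, TAS1C, TAS2 and TAS3 were more than 2-fold higher in rdr6-11 and in the second pair, beside 4.71% and 12.3% of all measured genes. In the first pair TAS3 reached 100 reads only in rdr6-11, and TAS1B, TAS3B and TAS4 were not measured. In the second pair 5 of the 7 precursors were measured, of which these 4 were higher and 0 lower. TAS1C (AT2G39675) had 115 reads in Col-0 compared with 787 in rdr6-11, with 113, 143 and 211 in ein5-1, ski2-3 and the double mutant, against 874 in the triple mutant. Its log2 ratio was 2.30 (2.02 to 2.60), and 2.37 in the second pair. TAS2 (AT2G39681), which lies beside TAS1C in the genome, had 135, 79, 66 and 163 reads in Col-0, ein5-1, ski2-3 and the double mutant, against 769 and 890 in rdr6-11 and the triple mutant, a log2 ratio of 2.04 (1.78 to 2.32). For both genes the 2 libraries with the rdr6-11 allele stood above the other 4.

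TAS1A (AT2G27400) had 101 reads in Col-0 against 388 in rdr6-11, a log2 ratio of 1.47 (1.15 to 1.80), with 103, 92 and 198 in ein5-1, ski2-3 and the double mutant, against 395 in the triple mutant. TAS3 (AT3G17185) had fewer reads, 61, 44, 55 and 41 in the libraries with RDR6 and 202 and 251 in those without it. Its log2 ratio was 1.25 (0.84 to 1.70) in the first pair and 2.92 in the second. These genes too had no overlap between the libraries with and without the allele. TAS1B stayed below 100 reads in the first pair, with 45 reads in Col-0 and 70 in rdr6-11, and its log2 ratio was 0.17 (-0.39 to 0.74). TAS3B and TAS4 had at most 1 read in Col-0 and 2 in rdr6-11. TAS1A, TAS1B and TAS1C are related in sequence and can share reads.

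Of the measured tasiRNA targets, ARF4 (AT5G60450) was the furthest from Col-0. This repressor of auxin responses, which helps to set the lower face of the leaf, had 330 reads in Col-0 compared with 1330 in rdr6-11, a log2 ratio of 1.54 (1.37 to 1.72). In ein5-1 and ski2-3 it had 429 and 396 reads. It had 1241 in the double and 1845 in the triple mutant, so that the second pair gave 0.89. ARF3 (AT2G33860), its close relative, had 343 reads in Col-0 against 819 in rdr6-11, at 0.79 (0.60 to 0.97), and 0.49 in the second pair. Scaled reads of ARF3 and ARF4 in both libraries without RDR6 lay above those in all 4 with it. ARF2 went the other way, from 1387 reads to 1209, at -0.67 (-0.78 to -0.55), and -1.04 in the second pair, with both libraries without RDR6 below the other 4.

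Among 25 listed targets of the TAS1 and TAS2 siRNAs, which are mostly pentatricopeptide repeat genes for organelle RNA processing, 7 were measured. HTT2 (AT5G18040), a heat-induced TAS1 target, had 68 reads in Col-0 compared with 245 in rdr6-11, at 1.38 (0.99 to 1.79), and AT1G12775 had 59 and 192, at 1.23 (0.81 to 1.68). Both were also at least 2-fold higher in the second pair, at 1.40 and 1.33. AT1G62590 (0.99), RPF3 (0.82), AT1G63130 (0.59) and AT1G62910 (0.51) were under 2-fold, and AT1G64580 stood at -0.56. Of the 7, 4 reached 100 reads only in rdr6-11, HTT2 and AT1G12775 among them. With no minimum, both libraries without RDR6 lay above the other 4 for 9 of the 25 targets and below them for 0. Of all 32696 nuclear genes, 5833 lay above and 4395 below in the same way. The 18 targets under 100 reads included RPF2 (51 reads in Col-0, 49 in rdr6-11, -0.52) and AT1G63080 (68 and 75 reads, -0.32). These related genes can share reads. None of the 3 targets of TAS4, the anthocyanin regulators PAP1, PAP2 and MYB113, reached 100 reads in the first pair. PAP1 and PAP2 had 688 and 448 reads in the double mutant and 31 and 20 in the triple mutant, at -4.13 and -4.14.

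**Figure D2:**
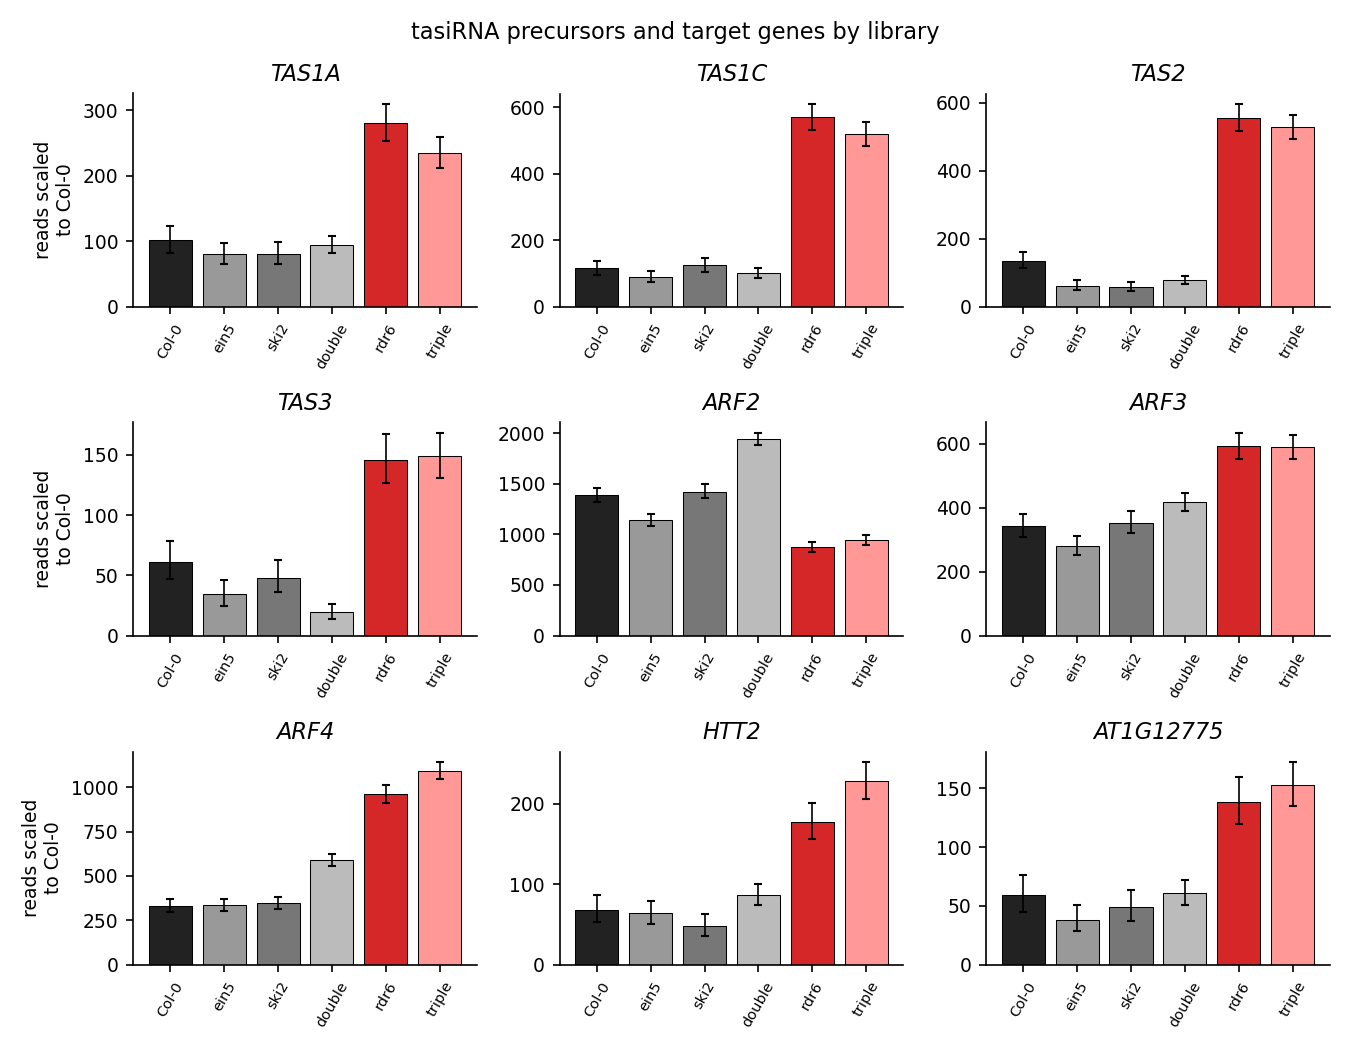
Bars give reads of 4 tasiRNA precursors and 5 target genes in each library, divided by the scaling factor of the library, with 95% Poisson intervals for counting error; rdr6 and triple are the libraries with the rdr6-11 allele. TAS1A, TAS1C, TAS2 and TAS3 are higher in both of these than in the other 4, as are ARF3, ARF4, HTT2 and AT1G12775, while ARF2 is lower.

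Of 19 measured genes of the small RNA machinery, 0 were at least 2-fold different, beside 4.71% higher and 5.66% lower of all measured genes. Their median was -0.13 beside -0.03 for all. SGS3, the partner of RDR6 in copying RNA, stood at 0.04 (-0.31 to 0.39), DCL4, the Dicer that cuts tasiRNAs, at -0.15, AGO7, which binds miR390, at 0.18, and AGO1 at -0.38. In the second pair 5 of 21 machinery genes were lower and 0 higher, beside 10.9% and 12.3% of all measured genes. Among 11 other genes that give rise to secondary siRNAs, 1 was called, a share near that of all genes. It was SMXL5, which was lower, with 372 reads in Col-0 and 235 in rdr6-11 (-1.13). The auxin receptor genes TIR1 (-0.76), AFB2 (-0.57) and AFB3 (-0.69) had negative ratios. The nitrate reductases NIA1 (0.79) and NIA2 (0.13) and the disease resistance genes SNC1 (0.38), RPP4 (0.89) and RPP5 (0.45) had positive ratios under 2-fold. The measured SPL genes, which mark the change from juvenile to adult leaves and are targets of miR156, had ratios between -0.02 and 0.33. Reads of SPL13A and SPL13B can be shared, since these copies are near-identical.

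Leaf polarity genes, of interest because ARF3 and ARF4 act with them, were mixed. YAB1, a factor of the lower leaf face, had 96 reads in Col-0 against 343 in rdr6-11 (1.37), and 186 and 487 in the second pair. AS1, a MYB factor that represses meristem genes in leaves, had 657 and 302 (-1.59), and 1832 and 457 in the second pair. The other 7 measured genes were under 2-fold. Auxin response genes had 2 of 10 measured members higher and 1 lower. Over all measured genes 4.71% were higher and 5.66% lower. IAA17, a repressor of auxin responses, had 100 reads in Col-0 compared with 636 in rdr6-11 (2.20), IAA2 stood at 1.13, and GH3.3, which conjugates auxin to amino acids, at -1.37.

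Clock genes differed by large factors. Of 13 morning genes, 12 were at least 2-fold higher in rdr6-11, beside 4.71% of all measured genes, and the median log2 ratio was 5.33. All 13 were measured, though 10 of them reached 100 reads only in rdr6-11. CCA1 (AT2G46830) had 5 reads in Col-0 against 639 in rdr6-11, a log2 ratio of 6.41 (5.30 to 8.16). It had 0, 3 and 19 reads in ein5-1, ski2-3 and the double mutant, against 900 in the triple mutant. LHY (AT1G01060) had 3 reads in Col-0 compared with 193 in rdr6-11 (5.35, 3.97 to 7.83), with 6, 2 and 3 reads in ein5-1, ski2-3 and the double mutant, against 395 in the triple mutant. In all 4 libraries with RDR6, then, each of these dawn genes had at most 19 reads.

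LNK3 (AT3G12320) had the highest ratio of the list, with 3 reads in Col-0 and 765 in rdr6-11 (7.34, 5.97 to 9.81). LNK4 (AT5G06980) had 5 and 608 (6.34), LNK2 had 35 and 2048 (5.39), and LNK1 had 32 and 570 (3.67). These genes are named for night-light induction, and LNK1 and LNK2 act as coactivators with RVE8. RVE8, an activator of evening genes, had 2 and 148 reads (5.47, 3.86 to 8.80). The pseudo-response regulators PRR9 and PRR7, which repress CCA1 and LHY, had 2 and 134 reads (5.33, 3.72 to 8.66) and 167 and 1376 reads (2.57). RVE7 (2.25), RVE1 (1.58) and RVE4 (1.11) completed the higher genes. RVE2 was the exception, with 350 reads in Col-0 and 36 in rdr6-11 (-3.73). The libraries without RDR6 lay above the other 4 for 12 of the 13 genes and below them for RVE2, beside 20.5% and 22.4% of all measured genes. The calls were the same in the second pair, whose median was 3.88.

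Of 13 measured evening genes, 8 were at least 2-fold lower in rdr6-11 and 0 higher, beside 5.66% and 4.71% of all measured genes, with a median of -2.28. Of the 13, 6 reached 100 reads only in Col-0. FKF1 (AT1G68050), a blue-light receptor that triggers flowering in long days, had 480 reads in Col-0 against 5 in rdr6-11 (-6.89, -8.68 to -5.82). It had 512, 433 and 910 in ein5-1, ski2-3 and the double mutant, against 14 in the triple mutant. PRR3 had 327 and 4 (-6.62), ELF4 had 136 and 2 (-6.19, -9.62 to -4.67), and BOA, a relative of LUX, had 239 and 4 (-6.17). LUX (-2.66), TOC1 (-2.53), PRR5 (-2.28) and ELF3 (-2.11) were lower by smaller factors. TOC1 (AT5G61380) had 1859, 2353, 2424 and 3652 reads in the libraries with RDR6 and 446 and 504 in those without. GI stood at 0.43 (0.26 to 0.60), CHE at 0.34, ELF4-L2 at 0.25, ZTL at -0.34 and LKP2 at -0.62. The same 8 genes were lower in the second pair, with a list median of -2.16.

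**Figure D3:**
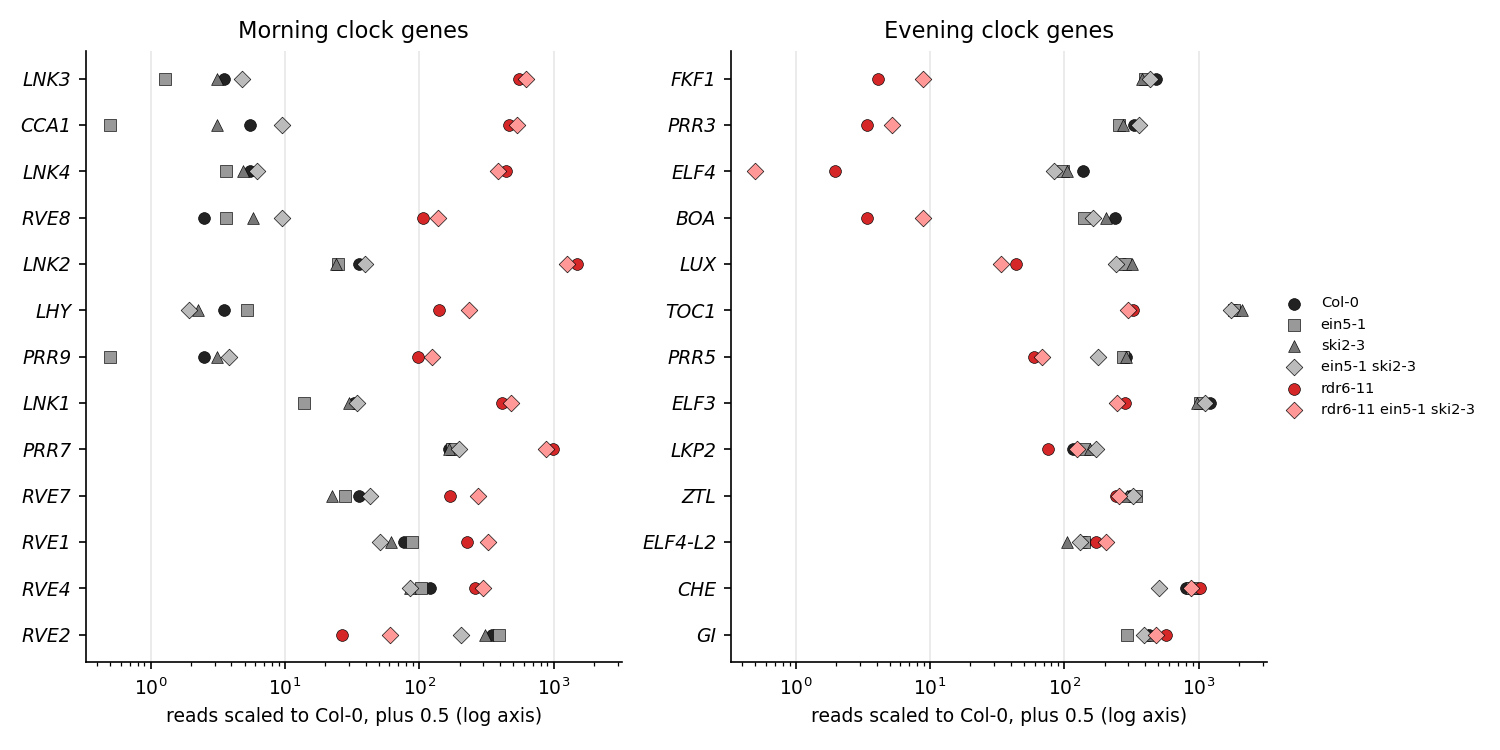
Each row is a measured clock gene, and each symbol its reads in one library, scaled to Col-0 with 0.5 added, on a log axis. The 2 libraries with the rdr6-11 allele (red and pink) lie to the right of the other 4 for 12 of 13 morning genes, RVE2 being the exception, and to the left for FKF1, PRR3, ELF4, BOA, LUX, TOC1, PRR5 and ELF3.

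Genes that the clock drives differed in both directions. Of 19 measured output regulators, 12 were higher and 5 lower, beside 4.71% and 5.66% of all measured genes. Of the 19, 10 reached 100 reads only in rdr6-11 and 2 only in Col-0. All 17 called genes were called the same way in the second pair. The higher ones included CDF1 (2.44), CDF2 (2.53) and CDF3 (3.42), which repress the flowering gene CONSTANS in the morning, the growth regulators PIF4 (2.34) and PIF5 (3.70), the B-box genes STO (3.16) and STH (4.11), and SIG5 (3.06), a sigma factor of the plastid RNA polymerase. Catalases were split. CAT2, which peaks in the morning, had 925 reads in Col-0 compared with 6818 in rdr6-11 (2.41), whereas CAT3, which peaks in the evening, had 11274 and 7026 (-1.15). The evening-phased RNA-binding protein GRP7 (AT2G21660) had 6857, 6483, 3547 and 7052 reads in the libraries with RDR6 and 177 and 237 in those without (-5.74, -5.97 to -5.53). COR27 had 251 and 2 reads (-7.07, -10.49 to -5.57), COL9 had 580 and 13 (-5.88), and GRP8 had 240 and 100 (-1.72). Of 6 measured flowering genes 0 were called, a count near the share over all genes, with SOC1 at 0.27 and SVP at 0.50. FT, the mobile flowering signal, stayed under 100 reads, with 44 in Col-0 and 2 in rdr6-11 (-4.57, -8.02 to -2.99), and 9 in the double and 15 in the triple mutant. In the second pair 2 of 8 flowering genes were higher, SOC1 (1.39) and SNZ (2.04), and 3 lower, beside 12.3% and 10.9% of all measured genes.

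Among the 15 highest ratios of all measured genes, 6 belonged to the morning list (LNK3, CCA1, LNK4, RVE8, LNK2 and LHY), 3 were the LHCB2 genes of the light-harvesting antenna and 1 was PORA, of chlorophyll synthesis. Genes with 0 reads in Col-0 owe their place in this order to the pseudocount. Of these, BBX16, a B-box gene, had 356 reads in rdr6-11, or at least 85.8-fold more against a floor of 3 reads per library, which is less than the 162-fold of LNK3 and the 87.1-fold of LHCB2.3. It had 69 reads in the double and 378 in the triple mutant. AT3G53830 (0 and 207 reads, at least 49.9-fold) and AT2G15020 (0 and 121 reads, at least 29.2-fold) were the others. BBX28 had 5 and 950 reads (6.99), and the protein kinase gene CIPK20 had 5 and 690 (6.52). The lowest ratios included AT4G33980 (178 and 0 reads, at least 82-fold lower), CSLG2, a gene related to cellulose synthases (165 and 0 reads, at least 76-fold lower), and JMJD5, a jumonji protein of the clock (569 and 4 reads, -7.42). ELI3-2, a pathogen-responsive alcohol dehydrogenase gene, had 225 reads in Col-0 against 0 in rdr6-11, or at least 104-fold lower. It had 101 reads in ein5-1, 468 in ski2-3, 15 in the double and 41 in the triple mutant, so its libraries overlapped.

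The evening element AAAATATCT, a sequence first described in promoters of evening-phased genes, is shown here in promoters of genes that were lower in rdr6-11 (TOC1 to ISA3) and of 2 that were higher (RVE7 and COL2). The windows run 20 bases to either side of the element (capitals), lie before the annotated gene start, and are written on the gene's strand, so that AGATATTTT is the element on the other strand. A single copy is marked for each gene. FKF1, GRP7 and COR27 have further copies near the gene start, and that of COR27 lies in lower case within its window.
TOC1: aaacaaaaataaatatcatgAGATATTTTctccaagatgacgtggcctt
LUX: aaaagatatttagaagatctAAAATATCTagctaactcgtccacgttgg
FKF1: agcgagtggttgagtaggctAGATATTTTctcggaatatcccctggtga
BOA: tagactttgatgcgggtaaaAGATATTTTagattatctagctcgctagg
GRP7: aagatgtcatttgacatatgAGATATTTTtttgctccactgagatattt
COR27: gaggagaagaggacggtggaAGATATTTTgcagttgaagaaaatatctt
ISA3: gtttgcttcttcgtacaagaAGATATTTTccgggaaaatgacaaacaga
RVE7: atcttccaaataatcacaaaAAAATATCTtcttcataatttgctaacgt
COL2: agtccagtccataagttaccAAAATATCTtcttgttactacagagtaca
They come from chr5:24674792-24674840 (TOC1, plus), chr3:17182969-17183017 (LUX, plus), chr1:25508433-25508481 (FKF1, plus), chr5:24003825-24003873 (BOA, plus), chr2:9266605-9266653 (GRP7, minus), chr5:17199921-17199969 (COR27, minus), chr4:5783850-5783898 (ISA3, plus), chr1:6308265-6308313 (RVE7, minus) and chr3:489628-489676 (COL2, minus) of TAIR10.1.

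Counted on both strands from 250 bases before to 50 after the gene start, the evening element was present in 75 of 750 promoters of genes at least 2-fold lower in rdr6-11 (10%). It was present in 20 of 625 promoters of higher genes (3.2%), in 2.7% of those of measured genes under 2-fold and in 2.64% of all 32207 promoters. Read the other way, 5.26% of measured genes without the element were at least 2-fold lower, 16.8% of the 393 with 1 copy and 39.1% of the 23 with 2 or more. In the second pair these shares were 7.12%, 16.2% and 39.1%. The share of higher genes was 4.71%, 4.83% and 4.35% in the first pair. At the extremes the element was in 14% of the promoters of the 100 lowest genes and in 9% of those of the 100 highest. It was in 5 of 13 promoters of evening clock genes and in 2 of 13 of morning clock genes, PRR9 and RVE7, and among higher output regulators in those of STO (3.16) and COL2 (3.48). The CCA1-binding site AAAAATCT, whose letters neither contain nor lie within the evening element, was in 8.93% of lower, 8.48% of higher and 7.4% of all promoters. It was in 8.35% of promoters of measured genes under 2-fold, close to both called groups.

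The G-box CACGTG, which bZIP and bHLH factors bind, was in 12.6% of promoters of higher genes and 11.7% of lower ones, beside 6.93% of all, and in 10 of the 13 morning clock promoters. The telo-box AAACCCTA, common in genes of the ribosome and of cell growth, was in 3.36% and 1.87%, beside 6.28% of all. The I-box GATAAG was in 18.1% of higher, 19.1% of lower and 15% of all promoters. The cold element, GCCGAC or ACCGAC, was in 8.8%, 9.73% and 8.87%, and the W-box, TTGACC or TTGACT, the site of WRKY factors, in 39%, 29.3% and 31.8%. In promoters of measured genes under 2-fold, the G-box share was 8.72%, above that of all promoters. The other shares there were 6.08% for the telo-box, 15.2% for the I-box, 9.98% for the cold element and 32.5% for the W-box. A match of letters is a description of these windows, not evidence that a factor was bound.

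Light-harvesting antenna genes, which encode the chlorophyll-binding proteins around the photosystems, were higher in rdr6-11. All 21 members were measured, 1 of them reaching 100 reads only in rdr6-11. By 2-fold or more, 16 were higher and 0 lower, beside 4.71% and 5.66% of all measured genes, with a median log2 ratio of 2.15. In the second pair 19 were higher, the same 16 among them, beside 12.3% of all measured genes. The antenna took 2.87% of nuclear reads outside ribosomal RNA in Col-0, 3.49% in ein5-1, 3.17% in ski2-3, 2.73% in the double mutant, 9.78% in rdr6-11 and 8.7% in the triple mutant, so the libraries without RDR6 stood above the rest.

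The LHCB2 genes of the photosystem II antenna differed most. LHCB2.3 (AT3G27690) had 163 reads in Col-0, 251 in ein5-1, 257 in ski2-3, 523 in the double mutant, 19669 in rdr6-11 and 23007 in the triple mutant (6.44, 6.23 to 6.68). LHCB2.1 had 757 reads in Col-0 against 52295 in rdr6-11 (5.64), and LHCB2.2 had 654 and 42746 (5.56). LHCB1.3, the antenna gene with the most reads in Col-0, had 99105 and 252192 (0.88), and the other LHCB1 genes ranged from 2.15 for LHCB1.2 to 3.43 for LHCB1.4. Copies within LHCB1 and within LHCB2 are near-identical and can share reads. LHCB3 (3.33), LHCA4 (2.59), LHCA1 (2.67) and LHCB6 (2.02) were also higher, while LHCA5 (0.13) and LHCA6 (0.16), which are minor antenna proteins, were within 2-fold. In the second pair LHCA5 (1.20) and LHCA6 (1.27) were called higher.

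Core components of photosynthesis differed less. Over all measured genes, 4.71% were higher and 5.66% lower. Of 30 photosystem and electron transport genes, 7 were higher by 2-fold or more, 0 were lower and the median was 0.78. They were PSAD-2 (2.50), PSAH2 (1.44), PSAN (1.24), PSAF (1.16), PSAD-1 (1.11), PSAE-1 (1.07) and PSAG (1.01), all of photosystem I. In the Calvin cycle, which fixes carbon dioxide, RCA (1.19), the activase of Rubisco, and FBA1 (1.18) were higher and CP12-2 (-1.48) was lower of 15 genes, with a median of 0.17. The Rubisco small subunit genes lay between -0.17 and 0.70, and these near-identical copies can share reads. In the second pair the medians of these groups were 1.19 and 0.98.

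In chlorophyll synthesis, 6 of 17 measured genes were higher and 0 lower, beside 4.71% and 5.66% of all measured genes. CAO (AT1G44446), which makes chlorophyll b, the pigment of the antenna, had 123 reads in Col-0 compared with 2192 in rdr6-11 (3.68, 3.43 to 3.96), and 313 and 3050 in the second pair. HEMA1 (2.18), which starts tetrapyrrole synthesis, GUN5 (1.88) and GUN4 (2.31) of magnesium chelatase, and CRD1 (1.89), a subunit of the cyclase, were higher as well. PORA had 3 and 198 reads (5.39, 4.01 to 7.87). The other enzymes measured stood between -0.18 and 0.51.

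Genes of starch breakdown were lower. Of 13 measured, 8 were at least 2-fold lower and 0 higher, beside 5.66% and 4.71% of all measured genes, with a median of -1.31, and all 13 had a negative ratio. PWD (AT5G26570), which phosphorylates starch so that it can be degraded, had 2000, 1865, 1976 and 3573 reads in the libraries with RDR6 and 311 and 392 in those without (-3.15, -3.33 to -2.98). The debranching enzyme ISA3 had 1287 and 275 reads in Col-0 and rdr6-11 (-2.69), the cytosolic phosphorylase PHS2 had 6863 and 2079 (-2.19), and the dikinase SEX1 had 5747 and 2311 (-1.78). The beta-amylase BAM3 (-1.68), DPE1 (-1.44), the phosphatase SEX4 (-1.31) and AMY3 (-1.01) were lower by less. AMY3 lay under 2-fold with total nuclear counts and with median-of-ratios size factors. The evening element was present in 4 of these 13 promoters.

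Starch synthesis was less uniform, with 1 gene higher and 3 lower of 12, beside 4.71% and 5.66% of all measured genes. GBSS1 (AT1G32900), which makes amylose, had 34 reads in Col-0 against 936 in rdr6-11 (4.30, 3.82 to 4.85). It had 34 and 25 reads in ein5-1 and ski2-3, but 2211 in the double and 1202 in the triple mutant, so the second pair gave -0.56 and the groups overlapped. The branching enzyme SBE2.1 (-1.94), SS4 (-1.23) and PGM (-1.08) were lower in the first pair.

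Of 9 measured cold-regulated genes, 6 were lower and 0 higher, beside 5.66% and 4.71% of all measured genes, and 2 of the 9 reached 100 reads only in Col-0. COR15B (AT2G42530) had 843 reads in Col-0 compared with 56 in rdr6-11 (-4.37, -4.80 to -3.99), KIN2 had 2034 and 353 (-2.99), COR15A had 181 and 34 (-2.86), RD29A had 582 and 200 (-2.01), and the dehydrin gene COR47 had 2458 and 1528 (-1.15). The zinc finger gene RHL41 stood at -1.12, and ERD10 (0.03), STZ (0.06) and RAV1 (0.50) were within 2-fold. The same 6 genes were lower in the second pair.

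**Figure D4:**
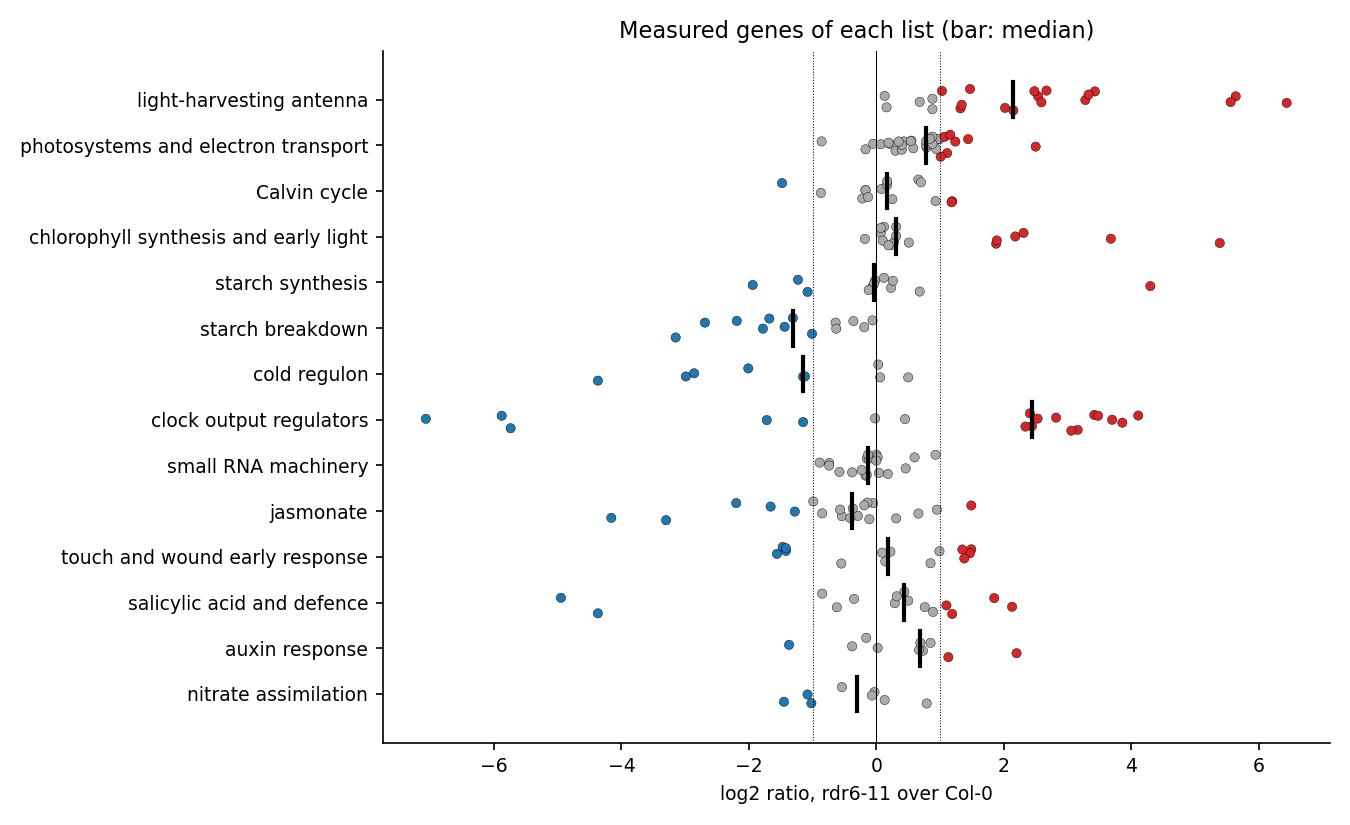
Points are the measured genes of 14 lists by their log2 ratio of rdr6-11 over Col-0, red where at least 2-fold higher and blue where at least 2-fold lower, with a bar at each median and dotted lines at 2-fold; vertical spread within a row has no meaning. The antenna row lies to the right of 0 throughout, starch breakdown to the left, and the small RNA machinery within 2-fold.

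Of 20 measured genes of the jasmonate pathway, a wound and insect response, 5 were lower and 1 higher. Over all measured genes 5.66% were lower and 4.71% higher. LOX2 (AT3G45140), the lipoxygenase of jasmonate synthesis in the chloroplast, had 43024 reads in Col-0 against 6025 in rdr6-11 (-3.30, -3.34 to -3.26), with 35744, 91548 and 53339 in ein5-1, ski2-3 and the double mutant, against 14878 in the triple mutant. AOC2 (-1.66) and AOS (-1.28), the next enzymes of the pathway, and the storage protein genes VSP1 (-4.16) and VSP2 (-2.20) were lower as well, and the repressor gene JAZ7 was higher (1.49). In the second pair only LOX2 of these lower genes was called, at -1.52, and the list median was 0.66 beside -0.39 in the first. The 4 defensin genes, which reached 100 reads only in Col-0 of the first pair, had a median of -6.67 there and of 3.99 in the second pair.

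Of 15 measured genes of salicylic acid and defence, 4 were higher and 2 lower, beside 4.71% and 5.66% of all measured genes. PR1, a marker of salicylic acid responses, had 54 reads in Col-0 compared with 270 in rdr6-11 (1.85), but 266 and 512 in ein5-1 and ski2-3, so the libraries with and without the allele overlapped. ICS1, which makes salicylic acid, had 31 and 189 reads (2.13), and PR5 (1.19) and SARD1 (1.10) were higher by less. PR1, ICS1 and PR5 were also called higher in the second pair. The camalexin genes PAD3 (638 and 28 reads, -4.95) and CYP71A13 (-4.37) were lower. Of the 15 genes, 4 reached the read minimum only in rdr6-11, with PR1, ICS1 and PR5 among them. Another 2, PAD3 and CYP71A13, reached it only in Col-0. Among 14 genes that respond early to touch and wounding, 4 were higher and 4 lower, beside the same shares of all measured genes. The higher ones were WRKY33 (1.49), WRKY53 (1.47), TCH4 (1.38) and TCH3 (1.35), and the lower ones ERF13 (-1.56), RRTF1 (-1.47), CAF1a (-1.42) and CAF1b (-1.42).

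Flavonoid and anthocyanin genes had 0 of 8 measured members called in the first pair, a count near the share over all genes, with a median of 0.05. In the second pair 8 of 11 were lower, beside 10.9% of all measured genes, with a median of -1.47. HSP90.1 (-1.26) was the 1 heat shock gene of 3 that was called in the first pair. In the second pair 7 of 7 heat shock genes were lower, beside the same 10.9%, with a median of -2.66. In both groups the double mutant held the most reads of the 6 libraries. Nitrate assimilation had 3 of 8 lower, beside 5.66% of all measured genes, namely UPM1 (-1.45), G6PD3 (-1.08) and the transporter NRT1.1 (-1.02). Of 10 genes induced by dark and sugar starvation, DIN11 was lower (-2.53) and the rest were within 2-fold, with ASN1 at 0.92. All lists together held 133 of the 1380 called genes (9.64%).

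Most called genes were protein-coding, 587 of the higher and 734 of the lower among 13051 measured. Of 62 measured pseudogenes 14 were higher and 3 lower, and of 52 transcribed pseudogenes 9 were higher and 5 lower, beside 4.71% and 5.66% of all measured genes. AT4G06477, a pseudogene, had 15758 reads in Col-0, 2465, 2849 and 2498 in ein5-1, ski2-3 and the double mutant, and 95257 and 71743 in rdr6-11 and the triple mutant (2.13). MIR163, a precursor that reached the minimum with 100 reads in rdr6-11 against 7 in Col-0 (3.29), MIR850 (14 and 126 reads, 2.67) and MIR167d (32 and 147 reads, 1.72) were higher among 5 measured miRNA genes. The transcribed pseudogene AT2G07688 had 30523 reads in Col-0 against 1407 in rdr6-11 (-4.91), with 54635, 64302, 115991 and 1065 in ein5-1, ski2-3, the double and the triple mutant. Pseudogenes can share reads with their parent copies, so which copy was read is uncertain.

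Among genes with at least 1000 reads in both Col-0 and rdr6-11, of which there were 1518, the 5 highest were antenna genes: LHCB1.4 (3.43), LHCB3 (3.33), LHCB1.1 (3.28), LHCA1 (2.67) and LHCA4 (2.59). The lowest after AT2G07688 and LOX2 were THIC, which makes the thiamine precursor and had 7339 and 1491 reads (-2.77), the germin-like gene GER3 with 13695 and 3555 (-2.41), and OEP6, of the plastid envelope, with 5598 and 1533 (-2.34). All 5 were lower in the second pair too.

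The lowest ratio of all was that of TRX3 (AT5G42980), a cytosolic thioredoxin of the h class. It had 4641 reads in Col-0, 6189 in ein5-1, 5766 in ski2-3, 9302 in the double mutant, 0 in rdr6-11 and 0 in the triple mutant. It was at least 2139-fold lower in rdr6-11 against the floor of 3 reads, and it was the only gene with at least 100 reads in each library with RDR6 and 0 in both without. Its neighbour UBC18, a ubiquitin-conjugating enzyme gene, had 174, 236, 167 and 455 reads in the libraries with RDR6 and 26 and 70 in those without (-3.18, -3.86 to -2.61). On the other side COP8 stood at -0.17 (-0.38 to 0.04), and beyond it AT5G42960, with 250 reads in Col-0 and 229 in rdr6-11, stood at -0.59 (-0.86 to -0.33), with both libraries without RDR6 below the other 4. Beyond UBC18 the proteasome gene RPT4A stood at 0.09 (-0.08 to 0.26). The absence of TRX3 reads falls in the same libraries as the rdr6-11 allele, and their parts in the other differences cannot be told apart. Of the other thioredoxins of the h class, TRX5 was lower (-1.05), and TRX2 (-0.25) and TH9 (0.13) were within 2-fold.

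**Figure D5:**
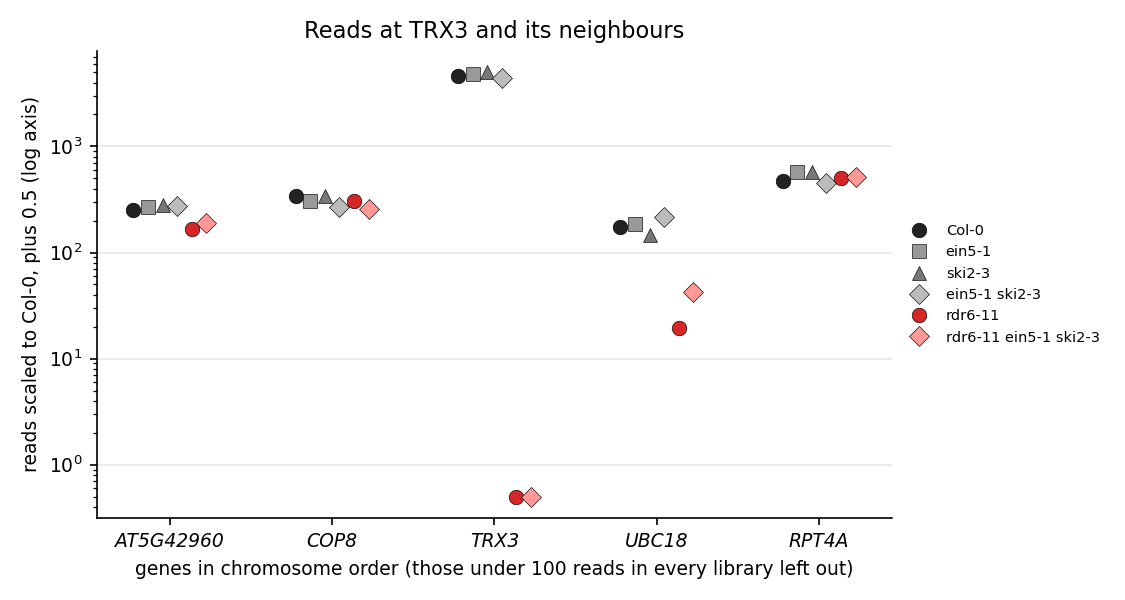
Reads scaled to Col-0, with 0.5 added, on a log axis, for TRX3 and the neighbouring genes that reach 100 reads, in chromosome order; each symbol is one library. TRX3 has 0 reads in both libraries with the rdr6-11 allele and its highest points in the others, UBC18 is lower in the same 2 libraries, and AT5G42960, COP8 and RPT4A lie within 2-fold between Col-0 and rdr6-11.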

How the data were processed

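The authors deposited read counts per gene for the 6 libraries, with RPKM values and log2 ratios of RPKM, per the file headers. The submitters' processing notes name BWA and TAIR9. The counting of reads per gene and its use of strand are not given in the sources used here. RNA was depleted of ribosomal RNA from 10 µg of total RNA, per the labels' protocols. Cells without a value (4041 genes in Col-0, 4572 in rdr6-11) were taken as 0 reads.

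Libraries were scaled on 33323 nuclear genes by the trimmed mean of M-values, written in numpy 2.4.6 with trims of 0.3 and 0.05. After scaling, 4 genes of ribosomal RNA and 623 of transfer RNA were left out. Log2 ratios had a pseudocount of 0.5. Intervals are exact 95% conditional binomial intervals (Clopper-Pearson, scipy). The method was tested on simulated data. With 1 library per genotype no test was made, and a call is a size of at least 2-fold with at least 100 reads.

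Members, gene lists (421 entries, 11 dropped because the symbol did not match or the table had no such gene) and comparisons were chosen with earlier results of these data known. Named genes are the 15 highest and 15 lowest, the 10 highest and lowest in both pairs, the 5 highest and lowest with at least 1000 reads in both libraries, genes with reads in only 1 of them, RDR6, list members and neighbours of TRX3. Non-coding genes outside the lists were chosen after their values were seen. Names and sequences came from RefSeq TAIR10.1, matched by gene identifier (32835 matched).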

Additional observations from a re-analysis of the deposited data

Results flagged for a closer look

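A set of 21 genes was at least 2-fold different in both pairs but in opposite directions, lower in rdr6-11 than in Col-0 and higher in the triple than in the double mutant, or the reverse. The difference between the pairs was not tested. The 4 defensin genes, antifungal peptide genes driven by jasmonate and ethylene whose near-identical copies can share reads, were the most extreme. PDF1.2 had 1567 reads in Col-0 compared with 13 in rdr6-11 (log2 ratio -7.32), but 199 in the double and 1832 in the triple mutant (3.52). Its reads ranged over the other libraries too, with 617 in ein5-1 and 11258 in ski2-3. PDF1.2c stood at -7.15 and 3.28, PDF1.3 at -6.19 and 4.46, and PDF1.2b at -5.35 and 5.17.

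TPS04, a terpene synthase gene, stood at -3.28 and 2.80. FAMT, a methyltransferase gene, stood at -1.05 and 3.07. BT2, a BTB protein gene, had 7881 reads in Col-0, 4694 in rdr6-11, 4523 in the double and 8744 in the triple mutant (-1.21 and 1.27). The first-pair and second-pair values of the others that were lower first were -2.29 and 1.18 for AT3G22600, -2.06 and 1.13 for AT2G01021, -2.05 and 1.37 for ATCSLA15, -1.71 and 3.08 for AT2G35208, and -1.46 and 2.00 for PGL5. They were -1.43 and 1.72 for MBP2, -1.39 and 2.27 for AT5G38710, -1.32 and 3.09 for AT3G23550, -1.17 and 1.59 for AT5G01015, and -1.11 and 2.16 for IKU2. The genes higher in the first pair and lower in the second were HB-12 (1.05 and -1.13), AT5G10760 (1.16 and -1.45), AT2G29670 (1.40 and -1.16) and AT2G19650 (1.47 and -1.66). AT2G29670 had 797 reads in Col-0 against 2906 in rdr6-11, with 10503 in the double mutant. AT2G01021 and AT2G35208 had 12718 and 1077 reads in Col-0, where ribosomal RNA took 19.2% of nuclear reads. They had 1590 and 29 in ein5-1 (1.07%), 429 and 6 in ski2-3 (0.335%), and 2844 and 48 in the double mutant (2.71%). In the libraries without RDR6 they had 4211 and 456 in rdr6-11 (1.58%), and 4974 and 329 in the triple mutant (1.38%). A link with ribosomal RNA was not tested. Of the 21, FAMT, IKU2 and AT5G01015 were under 2-fold in the first pair with total nuclear counts, and HB-12 with a pseudocount of 5 or without ribosomal RNA in the total. Second-pair calls of single genes were not rechecked. Total nuclear counts moved the median log2 ratio of the second pair from -0.01 to -0.23, so its calls near 2-fold can be lost as well.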

How the results depend on the processing

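The counts of called genes depended on the read minimum and less on scaling. With a minimum of 20 reads, 1244 genes were higher and 1296 lower in rdr6-11, and 706 and 742 in both pairs. A minimum of 500 reads left 291 and 275, and 235 and 151. With no minimum the counts were 6437 and 2788, and 1936 and 1406. Scaling by total nuclear counts gave 945 higher genes. The other scalings, a pseudocount of 5, halved counts and the authors' deposited ratios kept every count within 1.5 times. No called gene checked under these alternatives changed direction in the first pair. The non-coding genes AT4G06477, MIR163, MIR850 and MIR167d were not among those checked. With total nuclear counts 12 of 169 named calls were under 2-fold, namely AMY3, PGM, CAT3, COR47, RHL41, SMXL5, NRT1.1, G6PD3, TRX5, FAMT, IKU2 and AT5G01015. Without ribosomal RNA in the total, PSAE-1, PSAG, LHCB4.3 and HB-12 were, with median-of-ratios size factors AMY3 and NRT1.1, and with a pseudocount of 5 HB-12. No paired analysis was possible because each genotype had 1 library and the labels give no replicate numbers, and leaving out a library leaves no comparison in its pair. A fit over both pairs, with the background as a block, would have 1 residual degree of freedom and was not run.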
